A study of Mus musculus with 8 samples.

Results

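The *Usp17*-like genes encode a small family of deubiquitinating enzymes of the mouse, and 5 of them were taken as the family here by their names, *Usp17la*, *Usp17lb*, *Usp17lc*, *Usp17ld* and *Usp17le*. Matching the RefSeq accession of each probe to these current names gave 5 probes for 4 of the genes, out of 39429 probes and 19751 named genes on the array. The older names *Dub1*, *Dub1a*, *Dub2* and *Dub2a* were not matched separately. *Usp17le* had no probe under these names and was not analysed. The family was chosen with the difference between the groups on these arrays already known, so its values are given as a description, without a test.

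The arrays compared VV3 ESCs after knockdown of *L3mbtl2* with control ESCs, to ask which genes depend on L3MBTL2, a subunit of the MAX-containing PCGF6-PRC1 repressor complex. VV3 is a male mouse ESC line that carries a *Vasa*::Venus reporter of the germ cell gene *Vasa* (*Ddx4*) and was grown in medium with serum and LIF on mitomycin C-inactivated STO feeder cells. The 4 *L3mbtl2*-KD samples received a single siRNA against *L3mbtl2* and were *Vasa*-positive cells purified by FACS. The 4 control samples received the non-silencing AllStars siRNA, and the methods do not say whether they were sorted. Selection of *Vasa*-positive cells is stated for the *L3mbtl2*-KD samples only, so knockdown and selection cannot be told apart in the differences below. The samples of each group are biological replicates, each on its own one-colour Agilent array with 43020 spots outside the controls. The 8 arrays lay on 2 slides, scanned separately, with replicates 1 and 2 of both groups on one slide and replicates 3 and 4 on the other. Within a slide the groups always took different positions, so that position and group cannot be told apart. The 75th percentile of spot intensity was 791 to 1038 in *L3mbtl2*-KD ESCs and 854 to 1024 in control ESCs, and 59.5 to 63.9% and 62.0 to 66.6% of the spots were well above background. The number of arrays limits the precision.

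USP enzymes are cysteine proteases that remove ubiquitin from proteins and so can spare them from degradation or alter their signalling. The first mouse members of the *Usp17*-like family, *Dub1* (*Usp17la*) and *Dub2* (*Usp17lc*), became known as immediate-early genes that cytokines switch on in haematopoietic cells. The genes are closely related copies of each other, and transcripts of the family are also found in the rare ESCs that resemble the early cleavage embryo.

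In RefSeq (GRCm38.p6) all 5 genes lie on chromosome 7. *Usp17la* and *Usp17lb* are next to each other in the gene order, on opposite strands. Promoter windows, from 250 bases before to 50 bases after the annotated start, were present for 4 members and not for *Usp17le*. These 4 are the members that were measured. The stretch that their windows share is printed because 4 of their 5 probes, all but a further *Usp17la* probe, gave similar patterns (described below). It lies at chr7:104856830-104856992 for *Usp17la* (plus strand), chr7:104842592-104842748 for *Usp17lb* (minus strand), chr7:103416468-103416630 for *Usp17lc* (plus strand) and chr7:103252593-103252755 for *Usp17ld* (minus strand), in each case upstream of the annotated start. Capitals mark a match to the STAT motif and the TATA box or its counterpart.
*Usp17la*: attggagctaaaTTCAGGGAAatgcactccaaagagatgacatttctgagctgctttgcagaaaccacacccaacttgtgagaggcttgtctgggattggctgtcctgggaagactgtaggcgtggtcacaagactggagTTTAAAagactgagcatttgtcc
*Usp17lb*: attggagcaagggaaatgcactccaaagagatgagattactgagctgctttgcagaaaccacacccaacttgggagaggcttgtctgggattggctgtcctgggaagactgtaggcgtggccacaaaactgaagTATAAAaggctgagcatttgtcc
*Usp17lc*: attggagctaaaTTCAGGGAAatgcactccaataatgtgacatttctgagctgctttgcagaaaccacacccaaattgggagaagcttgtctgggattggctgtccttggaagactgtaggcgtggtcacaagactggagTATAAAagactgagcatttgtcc
*Usp17ld*: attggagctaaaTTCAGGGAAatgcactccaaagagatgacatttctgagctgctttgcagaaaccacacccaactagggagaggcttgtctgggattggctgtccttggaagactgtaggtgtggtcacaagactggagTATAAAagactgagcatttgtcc

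Over the 147 bases that all 4 stretches share without a gap, pairs of members were 91.2 to 96.6% identical. The lowest identity was between *Usp17lb* and *Usp17lc* and the highest between *Usp17la* and *Usp17ld*. Of the motifs searched on both strands of the windows, TTCNNNGAA (bound by STAT factors, which act downstream of cytokine receptors) was found in *Usp17la*, *Usp17lc* and *Usp17ld*, as the same 9 letters, TTCAGGGAA, in each. It was not found in *Usp17lb*, and 8.30% of the 32851 RefSeq windows hold it. The motifs CACGTG (the E-box of MAX dimers, in 7.15% of all windows), GGCGGGA (E2F, 11.3%), TCACACC (the T-box motif of MGA, 3.98%), the palindromic motif of DUX (0.033%) and TGCACAC (ZSCAN4, 4.40%) were in none of the 4 windows. The TATA box TATAAA, searched after the sequences had been seen, was in *Usp17lb*, *Usp17lc* and *Usp17ld* and in 13.6% of all windows. In *Usp17la* the counterpart was TTTAAA, through the substitution A142T (the base of *Usp17lc* first, counted from the 5′ end of the printed stretch). The first base of the box lay 46, 31, 88 and 110 bases before the annotated start of *Usp17la*, *Usp17lb*, *Usp17lc* and *Usp17ld*. A match describes the letters only and does not show binding.

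The siRNA target was measured first. *L3mbtl2* (NM_145993, 1 probe) was at -1.45, -1.26, -1.58 and -1.73 in *L3mbtl2*-KD replicates 1 to 4 and at 0.27, -0.18, -0.21 and -0.31 in control replicates 1 to 4, in log2 of the intensity minus log2 of the 75th percentile of the array, the scale of all levels below. The difference was -1.40 with a standard error of 0.15 (limma, adjusted p = 0.00094 by Benjamini-Hochberg over 23524 probes). All 4 *L3mbtl2*-KD samples were below all controls, which held for 13.1% of the probes with a value on every array (two-sided exact permutation p = 0.0286, the smallest that 4 against 4 allows). *Ddx4*, the gene of the reporter used for sorting, was at 3.75 ± 0.11 (SD, n = 4) against 0.92 ± 0.08 (SD, n = 4), or 7.11-fold higher.

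The *Usp17*-like transcripts were higher in *L3mbtl2*-KD ESCs than in control ESCs on 4 of the 5 probes, by 3.77-fold to 7.19-fold, and each of the 4 genes measured had 1 such probe. Of all tested probes, 2.71% were more than 2-fold higher and 11.2% had no overlap of the groups in that direction. The fifth, a further *Usp17la* probe, differed by 1.22-fold and its groups overlapped. All 5 probes were well above background on all 8 arrays. In bulk samples such as these, fewer cells that express a gene and less RNA per cell cannot be told apart. The probes of a family of near-identical copies may also share targets, so that a value belongs to a probe and not surely to a single gene. The plot of the level of each probe on each array shows these values.

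**Figure D1:**
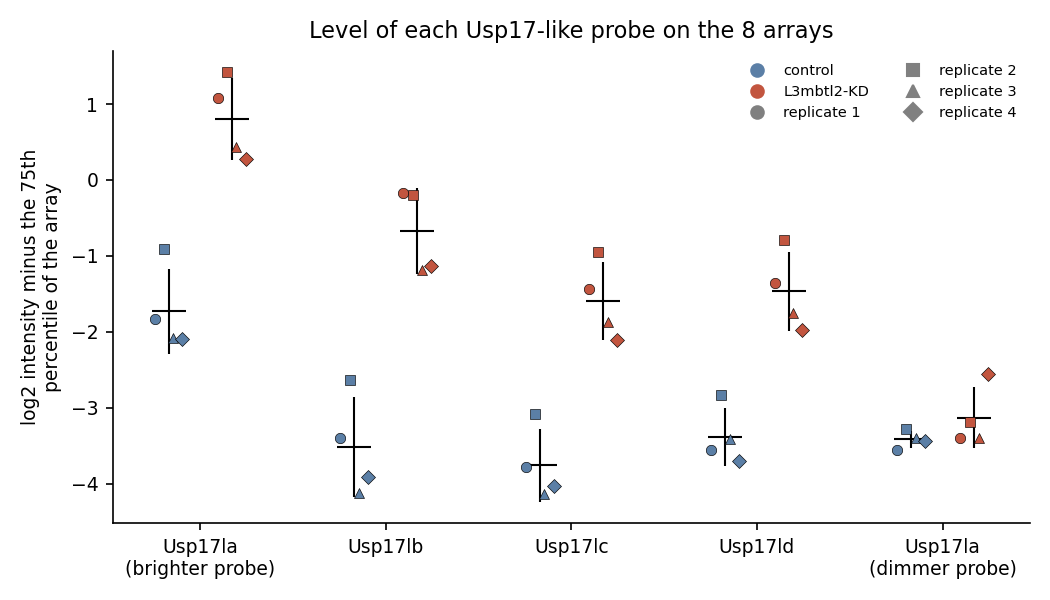
Level of each *Usp17*-like probe on each of the 8 arrays, as log2 intensity minus log2 of the 75th percentile of the array, with control samples in blue, *L3mbtl2*-KD samples in red and a symbol for each replicate number. Horizontal bars are group means and vertical bars 1 SD (n = 4). On 4 probes every red point lies above every blue point, and on the dimmer *Usp17la* probe the groups overlap.

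*Usp17la*, first described as the cytokine-inducible *Dub1*, had 2 probes for the same accession (NM_007887), called here the brighter and the dimmer by their intensity on the scanner. On the brighter one, the level was 1.08, 1.42, 0.44 and 0.27 in *L3mbtl2*-KD replicates 1 to 4 and -1.84, -0.91, -2.08 and -2.10 in control replicates 1 to 4. Replicate 2 was the highest of its group on both sides, and the lowest *L3mbtl2*-KD sample was 1.18 above the highest control. In intensity, the *L3mbtl2*-KD samples were at 1756, 2114, 1405 and 1124 and the controls at 244, 454, 243 and 223, while the 95th percentile of the 153 negative control spots was 5.24 to 15.9. The group means were 0.80 ± 0.54 and -1.73 ± 0.56 (SD, n = 4 each), a difference of 2.53 (standard error 0.33) or 5.79-fold.

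The dimmer *Usp17la* probe behaved differently. It was at -3.40, -3.18, -3.40 and -2.55 in *L3mbtl2*-KD ESCs and at -3.55, -3.28, -3.40 and -3.43 in control ESCs, with means of -3.13 ± 0.40 and -3.42 ± 0.11 (SD, n = 4 each). *L3mbtl2*-KD replicates 2 and 4 lay above every control, replicate 2 only narrowly, and the other two lay within the range of the controls. The difference was 0.28 (standard error 0.19), and 0.089 without *L3mbtl2*-KD replicate 4. Both probes carry the name of *Usp17la*, and they disagree. The sequences of the probes were not used here, so which transcripts each of them reads was not tested.

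*Usp17lb* (formerly *Dub1a*, NM_201409), the neighbour of *Usp17la*, had the largest difference of the family, except with normexp background correction, where it was 2.20 against 2.25 for the brighter *Usp17la* probe. Its level was -0.18, -0.19, -1.19 and -1.14 in *L3mbtl2*-KD replicates 1 to 4 and -3.40, -2.64, -4.12 and -3.92 in the controls. Both *L3mbtl2*-KD samples of the first slide were about 1 log2 unit above those of the second, and both controls of the first slide were also above those of the second. The means were -0.68 ± 0.57 and -3.52 ± 0.66 (SD, n = 4 each), which differed by 2.85 (standard error 0.37) or 7.19-fold, with a gap of 1.45 between the groups.

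*Usp17lc* (NM_010089), the gene described as *Dub2*, was at -1.44, -0.95, -1.88 and -2.11 in *L3mbtl2*-KD ESCs and at -3.78, -3.08, -4.14 and -4.04 in control ESCs. The order of the replicates within a group was close to that on the brighter *Usp17la* probe. The means of -1.59 ± 0.51 and -3.76 ± 0.48 (SD, n = 4 each) differed by 2.17 (standard error 0.30), or 4.49-fold, and the groups were 0.98 apart.

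*Usp17ld* (formerly *Dub2a*, NM_001001559) was at -1.35, -0.79, -1.75 and -1.98 in *L3mbtl2*-KD ESCs and at -3.56, -2.83, -3.42 and -3.71 in control ESCs. Its difference, the smallest of the 4, was 1.91 (standard error 0.28) or 3.77-fold, from means of -1.47 ± 0.52 and -3.38 ± 0.38 (SD, n = 4 each), and its groups were 0.86 apart.

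As background for these values, the median difference of the 5 probes was 2.17, against -0.029 over all probes tested. By size alone, 4 of the 5 probes were more than 2-fold higher, as were 637 of the 23524 tested probes (2.71%). On 4 of the 5, all *L3mbtl2*-KD arrays were above all control arrays, as on 11.2% of the probes measured on every array. Nothing is read from these counts, because the family was chosen on the same contrast. Among all tested probes, 64 had a larger difference than the *Usp17lb* probe, 93 than the brighter *Usp17la* probe, 182 than that of *Usp17lc*, 256 than that of *Usp17ld* and 3813 than the dimmer *Usp17la* probe. Over all genes, 340 of the 13656 tested (2.49%) were up-regulated and 440 (3.22%) down-regulated, a call needing one or more probes with an adjusted p under 0.05 and a change beyond 2-fold.

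Samples with the same replicate number moved together over the array as a whole, and the family followed this. Within the 4 same-numbered pairs, the brighter *Usp17la* probe was higher in the *L3mbtl2*-KD sample by 2.91, 2.33, 2.51 and 2.37, and the *Usp17lb* probe by 3.23, 2.45, 2.93 and 2.78. For *Usp17lc* the pair differences were 2.34, 2.13, 2.27 and 1.93, and for *Usp17ld* 2.21, 2.05, 1.67 and 1.73. In each of the 4 pairs the order was *Usp17lb*, *Usp17la*, *Usp17lc* and *Usp17ld*, from the largest to the smallest. Pair differences were also closer to each other than levels within a group, and with the replicate number as a block the standard errors of these 4 probes came down to 0.081 to 0.13. The dimmer *Usp17la* probe gave 0.15, 0.10, -0.0011 and 0.88, so that a single pair held most of its difference. Within the first and the second slide alone, the difference was 2.62 and 2.44 for the brighter *Usp17la* probe, 2.84 and 2.86 for *Usp17lb*, 2.24 and 2.10 for *Usp17lc*, and 2.13 and 1.70 for *Usp17ld*. The plot of the pairs shows all of them above 1.6 on the 4 probes.

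**Figure D2:**
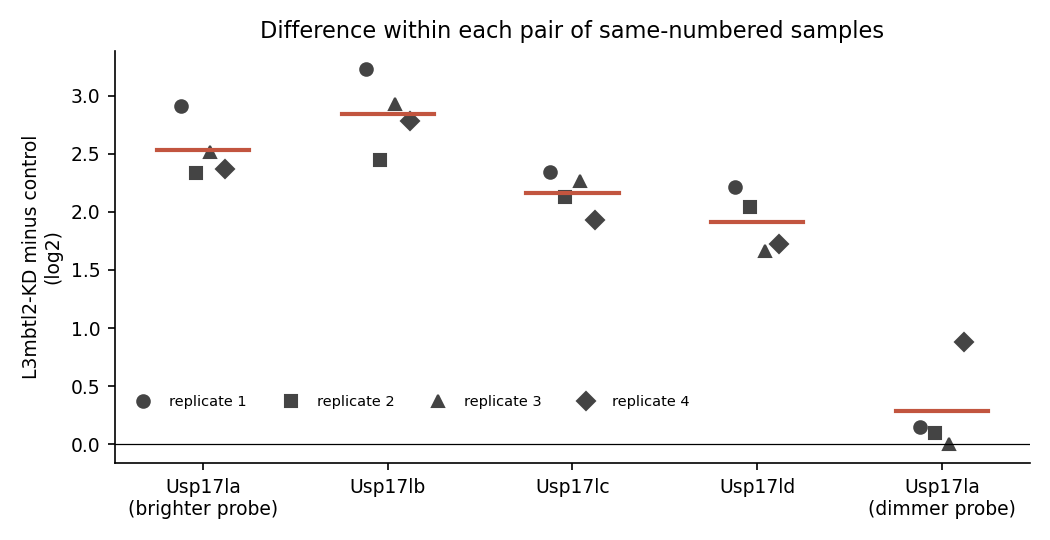
Difference between the *L3mbtl2*-KD and the control sample of each replicate number (log2), for each *Usp17*-like probe. Symbols stand for the 4 replicate numbers and red bars for the mean of the 4 pairs. Pair differences run from 1.67 to 3.23 on 4 probes and from -0.0011 to 0.88 on the dimmer *Usp17la* probe.

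The size of the difference depended on the processing. With normexp correction of the raw median intensities, which adds an offset of 50, it was 2.25 for the brighter *Usp17la* probe, 0.27 for the dimmer one, 2.20 for *Usp17lb*, 1.41 for *Usp17lc* and 1.28 for *Usp17ld*. Quantile normalization and the authors' deposited log2 values moved none of the 5 by more than the spread between replicates. The plot of the differences under each way of processing shows the same 4 probes above 1 in each.

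**Figure D3:**
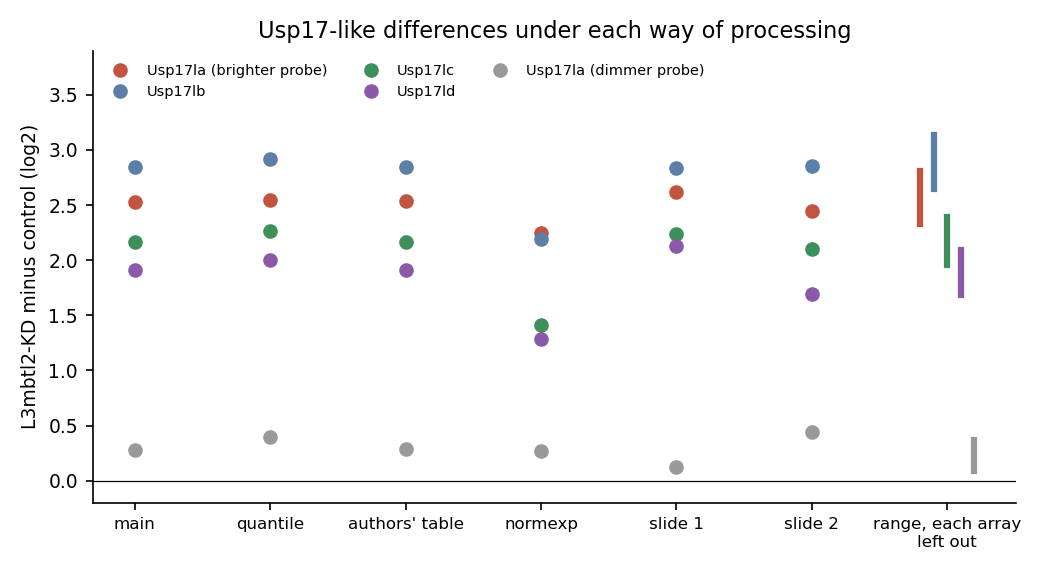
Difference of each *Usp17*-like probe (*L3mbtl2*-KD minus control, log2) with the processing used here, quantile normalization, the authors' deposited table, normexp background correction and within each slide. Bars at the right span the values with each array left out in turn. Under normexp the differences of *Usp17lb*, *Usp17lc* and *Usp17ld* are smaller, at 2.20, 1.41 and 1.28.

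The 4 probes with a clear difference also varied alike within the groups. Over the 8 arrays their levels correlated at 0.975 to 0.998 (6 pairs of probes), which mostly carries the difference between the groups. Deviations from the group means, which leave that difference out, correlated at 0.82 to 0.99. The dimmer *Usp17la* probe stood apart, with correlations to the other 4 of 0.37 to 0.40 for levels and -0.24 to -0.18 for deviations. The points of each correlation share the same arrays, and the probes near-identical targets, so these values describe probes and are no count of independent genes. Leaving out the dimmer probe was decided after its values had been seen.

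Among 13603 genes with one probe each, the levels most like those of the brighter *Usp17la* probe over the 8 arrays were those of *Pramel37* (r = 0.998), *Speer5-ps1* (0.997), *Gm11554*, *Gm5662* and *Pramel39* (0.996 each), all higher in *L3mbtl2*-KD ESCs, by 3.04, 1.87, 1.86, 2.36 and 2.98. *Pramel37* and *Pramel39* belong to the *Prame*-like family, itself made of similar copies. For deviations from the group means, the closest were *Tcstv1* (r = 0.992, 0.976 without the 2 arrays farthest from the median), *Gm5662* (0.991 and 0.984), *Ccn2* (0.991 and 0.979), *BC147527* (0.990 and 0.971) and *Pramel37* (0.983 and 0.926). *Ccn2* encodes a secreted matrix-associated factor, and its level did not pass the test between the groups (difference -0.041, standard error 0.36, adjusted p = 0.95 from limma). Its variation between arrays followed that of *Usp17la* all the same, as the plot of these genes over the arrays shows. The points share the 8 arrays, slides and replicate numbers.

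**Figure D4:**
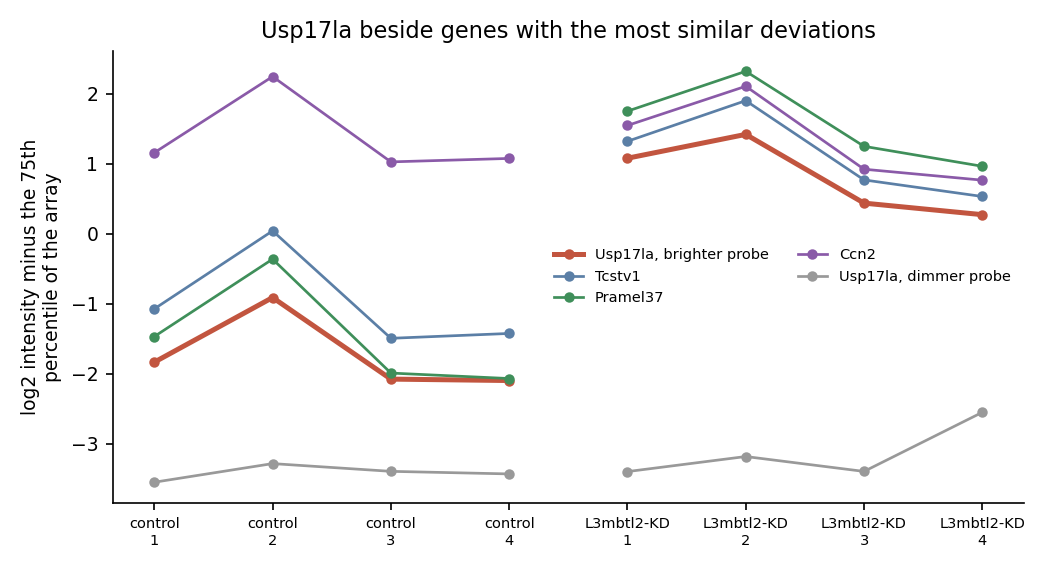
Levels of both *Usp17la* probes, *Tcstv1*, *Pramel37* and *Ccn2* on each array (log2 intensity minus log2 of the 75th percentile). Lines join the 4 samples of a group only to guide the eye. Apart from the dimmer *Usp17la* probe, each gene is highest in replicate 2 of both groups, and *Ccn2* is at a like level in the 2 groups.

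Other genes of the family's setting were measured from lists chosen by name. Of 53 further USP genes, 50 had a probe and 48 were tested, and 1 was up-regulated and 0 down-regulated, with a median difference of 0.033. The gene called was *Usp26*, a testis-expressed relative, at -4.11 ± 0.16 against -5.55 ± 0.41 (SD, n = 4 each), a difference of 1.45 (standard error 0.19, adjusted p = 0.0023 from limma). It was well above background on 2 of the 4 control arrays, and with normexp the difference was 0.57 and no longer called. Without regard to size, 1 of 2 probes of *Usp16* (0.54; the more intense one was at 0.43 with adjusted p = 0.11), *Usp37* (0.43) and *Usp20* (0.35) also passed the adjusted threshold upward, and *Usp46* (-0.56), *Pan2* (-0.45) and 1 of 2 probes of *Usp14* (-0.39; the more intense one was at 0.12 with adjusted p = 0.35) downward. That count depends on the model: with the replicate number as a block, 16 genes of the list passed upward and 13 downward, of which *Usp26* alone changed more than 2-fold. The most intense probe of the list, for *Usp5*, which recycles free ubiquitin chains, differed by -0.19 (adjusted p = 0.11, and 0.022 with that block). Besides *Usp26* none of the 48 tested USP genes changed more than 2-fold even at an unadjusted p under 0.05 in limma, where 10 genes were higher and 9 lower at any size.

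Of 36 genes of the other deubiquitinase classes, 34 were tested and 0 were called in either direction (median -0.020). None of the 34 changed more than 2-fold at an unadjusted p under 0.05 in limma, and at any size 6 were higher and 5 lower. Without regard to size, 2 genes of this list passed the adjusted threshold upward and 3 downward, and 6 and 6 with the replicate number as a block. *Stambpl1*, an endosomal enzyme of the JAMM class, came closest to a call, at -0.83 (standard error 0.12, adjusted p = 0.0029). *Cops5*, the most intense and the catalytic subunit of the COP9 signalosome, differed by 0.095 (adjusted p = 0.52). The 6 ubiquitin and ubiquitin-activating genes had no call either (1 higher and 1 lower at an unadjusted p under 0.05). *Rps27a*, which encodes a ubiquitin fusion, was at -0.19 on its most intense probe (adjusted p = 0.14). Its probes differed in sign, with a further bright one at 0.13 (adjusted p = 0.52) and a dim one at -0.16 (adjusted p = 0.51, all from limma). The plot of the lists sets these probes beside those of the family.

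**Figure D5:**
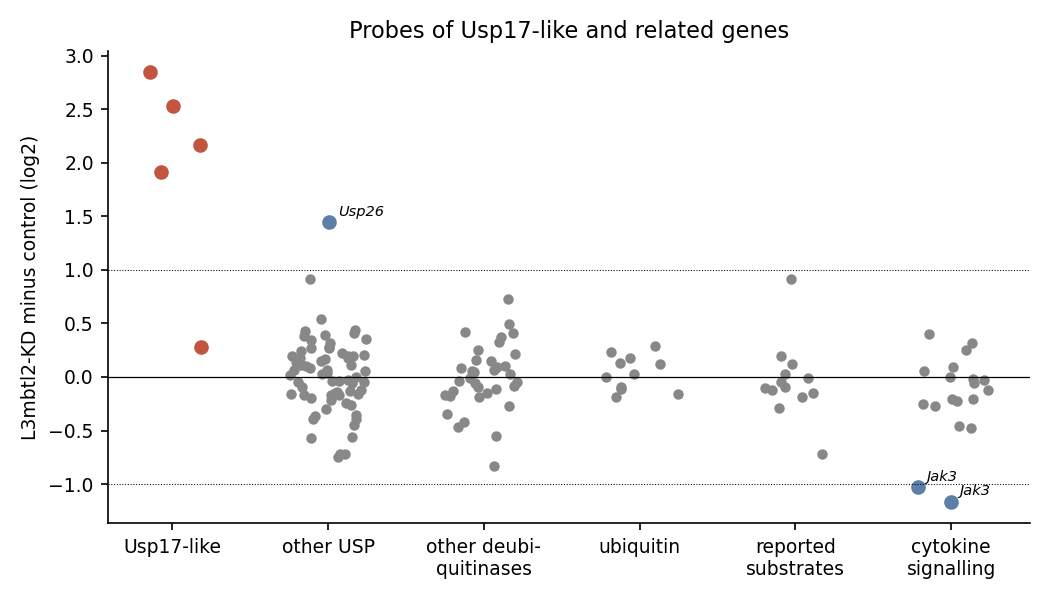
Difference (*L3mbtl2*-KD minus control, log2) of each tested probe of the *Usp17*-like genes (red), the other USP genes, the other deubiquitinases, the ubiquitin genes, the genes of reported USP17 substrates and the cytokine signalling genes. Dotted lines mark 2-fold and blue points the called genes, *Usp26* and *Jak3*. The sideways spread of the points has no meaning.

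For the genes of 12 proteins reported as substrates of mouse or human USP17 enzymes, transcripts say nothing of protein turnover and are given for completeness. Of these, 11 were tested and 0 called, with a median difference of -0.046 (1 higher and 2 lower at an unadjusted p under 0.05 in limma, all under 2-fold). *Rce1*, a protease that processes RAS proteins, was at -0.29 (standard error 0.08, adjusted p = 0.036), and *Mcl1*, an anti-apoptotic BCL2 relative, at 0.028 (adjusted p = 0.83).

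Of 22 genes of the cytokine pathway through which *Dub1* and *Dub2* became known, 15 were tested. The ligands *Il2*, *Il5* and *Csf2* and the receptor chains *Il2ra* and *Il2rb* were not well above background on any array. *Jak3*, the kinase bound to the common gamma chain, was down-regulated, with a difference of -1.16 (standard error 0.22, adjusted p = 0.0094 from limma) and -1.03 on its second probe (adjusted p = 0.021). With normexp the larger of these was -0.81 and not called. *Il3ra* was lower by less than 2-fold (-0.46, adjusted p = 0.0076), and 0 genes were called up (2 higher at an unadjusted p under 0.05). *Socs3*, a feedback inhibitor and the most intense of the list, differed by -0.27 (adjusted p = 0.31, and 0.018 with the replicate number as a block). Of 12 haematopoietic markers, 7 were tested and 0 called (2 lower at an unadjusted p under 0.05, none of them by 2-fold), and *Ptprc*, *Cd8a* and *Spi1* were not well above background on any array.

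Around the family on chromosome 7, the 61 named genes among the 15 on either side of each member were all olfactory receptor genes. Of these, 47 had a probe, 30 were not well above background on any array, and the only one tested, *Olfr609*, differed by -0.16 (standard error 0.10, adjusted p = 0.33). The whole interval from *Usp17ld* to *Usp17la*, looked at after these values had been seen, holds 118 genes in RefSeq with both ends counted, 74 of them olfactory receptor genes and 6 beta-globin genes. Of 69 with a probe besides the family, 7 were bright enough to be tested and 0 were called in limma. They were *Olfr609*, *Olfr629* (0.14), *Hbb-bh1* (0.062), *Trim6* (-0.32), *Trim34a* (-0.86, standard error 0.23), *Trim12a* (-0.069) and *Trim12c* (-0.15). A call needs a change beyond 2-fold, so its absence does not mean that a gene such as *Trim34a* was unchanged. The differences of these 7 tested genes ran from -0.86 to 0.14 on the most intense probe of each, beside 1.91 to 2.85 on the 4 *Usp17*-like probes. The other interval genes with a probe did not pass the filter on dim probes, so this range leaves them out.

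Markers of other cells differed between the groups and are given beside the family's values. Of 12 feeder fibroblast markers tested out of 14, 6 were down-regulated in *L3mbtl2*-KD ESCs (*Dcn*, *Col3a1*, *Col1a2*, *Acta2*, *Col1a1* and *Pdgfrb*) and *Loxl1* was up-regulated, while *Lum* and *Postn* were not well above background on any array. On no *L3mbtl2*-KD array were *Dcn* and *Col3a1* well above background, so that their falls are bounds, of at least 12.1-fold for *Dcn* and at least 7.81-fold for *Col3a1*. A bound sets the control mean against the dimmest signal that was well above background on each *L3mbtl2*-KD array, or the signal of the probe itself if that was higher. These bounds hold for the processing used here, since with normexp the differences were smaller, at -1.88 for *Dcn* and -1.55 for *Col3a1*. With normexp, *Pdgfrb* (-0.84) and *Loxl1* (0.89) changed less than 2-fold. The most intense, *Sparc*, differed by -0.40 (adjusted p = 0.049, 0.11 without the filter on dim probes and 0.019 to 0.12 with each array left out). The summed level of the list, in multiples of the 75th percentile, was 95.01, 118, 96.3 and 85.9 in *L3mbtl2*-KD replicates 1 to 4 and 133, 161, 144 and 147 in the controls. Most of this sum came from *Sparc* and *Fn1*, with mean levels of 6.08 and 4.62 in *L3mbtl2*-KD ESCs and 6.48 and 5.50 in control ESCs. It therefore says little of the other markers. The sum was highest in replicate 2 of both groups, as was the brighter *Usp17la* probe, and ran opposite to that probe between the groups. The part of feeder RNA in the family's values was not tested.

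Pluripotency markers were present in both groups, with a summed level of 296 to 333 in *L3mbtl2*-KD ESCs and 302 to 324 in control ESCs. None of the 10 was called, although *Klf4* was lower by less than 2-fold (-0.70, adjusted p = 0.027) and *Nanog* differed by -1.32 (adjusted p = 0.096, the one more than 2-fold at an unadjusted p under 0.05 in limma). *Dppa5a*, the most intense, differed by 0.17 (adjusted p = 0.30, and 0.032 with the replicate number as a block). With that block, 1 gene of the list passed the adjusted threshold upward and 3 downward, and 0 were called. Of 7 primitive endoderm markers tested, *Dab2*, *Sox17*, *Foxa2* and *Pdgfra* were down-regulated and 0 up-regulated. *Foxa2* was not well above background on any *L3mbtl2*-KD array, so that its fall is a bound, of at least 2.45-fold, and *Dab2* was so on 1 of the 4. With normexp *Pdgfra* (-0.80) changed less than 2-fold, and *Dab2* (-0.95) and *Foxa2* (-0.41, less than its bound) were not called. Of 7 trophectoderm markers 0 were called in limma (*Krt8* at an unadjusted p under 0.05). Among 8 germ cell markers, *Ddx4*, *Mael*, *Piwil2*, *Dazl* and *Stra8* were up-regulated, in cells sorted for the first of them.

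Of 19 genes of two-cell-like ESCs outside the *Usp17*-like family, 12 had a probe and 10 were tested, and 8 were up-regulated (among them *Sp110*, *Zscan4c*, *Tcstv1*, *Zscan4f*, *Tmem92*, *Tcstv3* and *Tdpoz4*), with a median difference of 1.76. *Tdpoz4* was well above background on 1 of the 4 control arrays, and with normexp it changed less than 2-fold (0.67). With the one-way test of the paper's figure legends, *Tmem92* (adjusted p = 0.053) and *Tcstv3* (adjusted p = 0.057) were not called. In limma without control replicate 3, *Tmem92* was not called either (adjusted p = 0.051). The probes of *Sp110* disagreed: 2 were higher, by 2.42 and 1.73, and the most intense one differed by -0.023 (adjusted p = 0.94). This list was drawn up with its direction on these arrays known and is no independent evidence. Its summed level, on the most intense probe of each gene and so with more from that *Sp110* probe than from any other in the group means, was 200, 196, 131 and 138 in *L3mbtl2*-KD replicates 1 to 4 and 132, 145, 95.1 and 98.3 in the controls, higher on the first slide in both groups, as were the 4 *Usp17*-like probes in the *L3mbtl2*-KD samples. Whether the family's transcripts came from the same cells as these was not tested.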

How the data were processed

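For each of the 8 one-colour arrays, the authors deposited spot intensity, background-subtracted and detrended by Feature Extraction 10.7.3.1 and not normalized between arrays. Their deposited log2 table, made with a 75 percentile shift in GeneSpring per the methods, matched shifted log2 intensities centred by probe (lowest r of an array 0.9999 over 39242 probes, column medians -0.059 to 0.079).

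Here, the 75th percentile of each array was subtracted on the log2 scale. Control spots and flagged outlier spots were dropped, no spot was saturated, and spots of a probe were averaged. RefSeq accessions named 26055 probes. Names, gene order and promoters came from RefSeq (GRCm38.p6), while the array design rests on mm9. Testing used limma 3.58.1 (lmFit, eBayes) in R 4.3.3 on 23524 probes that were well above background throughout one group or both, 78 of them with a value missing on some array. *Usp17*-like probes were given no p. Exact permutation tests used SciPy 1.17.1.

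The family and the gene lists were chosen with earlier results of these data known. The rule for names took the members, *L3mbtl2*, *Ddx4*, the called genes of each list (up to 6 with the largest change), its most intense gene, and the 5 genes most like the brightest *Usp17*-like probe by each correlation. Others were named after their values were seen, and some genes of the lists are not reported by name here.

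Same-numbered samples were taken as pairs, a pairing inferred from the values: deviations from the group means correlated at 0.38 to 0.58 within numbers and at -0.44 to 0.25 between them. Alternatives were normexp (offset 50, on median spot intensities), quantile normalization, the authors' table, other filters on dim probes and an intensity trend. Further ones were a block for slide or for replicate number and the one-way test (analysis of variance) of the paper's figure legends. The rest were 1.5-fold, one probe per gene and leaving out each array. The scripts were first tested on simulated data.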

Additional observations from a re-analysis of the deposited data

Results flagged for a closer look

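In 4 groups of samples, one sample lay far from the other 3, with a gap to the nearest of them that took up most of the range of the group. Chance gives this in about 1 in 20 groups, or 4.7 of the 94 examined, so the number is no more than chance would give. None of the 4 concerned a *Usp17*-like probe. For *Ccn2*, control replicate 2 had a level of 2.25 and the other controls averaged 1.09 (gap over range 0.89), and this array was also the highest control on each *Usp17*-like probe. For *Dab2*, *L3mbtl2*-KD replicate 1 had -4.41 and the others averaged -5.53 (0.90), but the probe was well above background on only 1 of these 4 arrays, so that the gap is no measured difference in level. For *Sox17*, control replicate 3 had -2.74 and the others -2.51 (0.86). For *Rps27a*, control replicate 4 had 8.07 and the others 7.95 (0.95).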

How the results depend on the processing

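The *Usp17*-like differences kept their direction under every alternative run, and leaving out each array gave 2.33 to 2.81 for the brighter *Usp17la* probe, 0.089 to 0.37 for the dimmer one, 2.64 to 3.14 for *Usp17lb*, 1.95 to 2.39 for *Usp17lc* and 1.69 to 2.09 for *Usp17ld*. Normexp lowered *Usp17lb* to 2.20, *Usp17lc* to 1.41 and *Usp17ld* to 1.28, by more than 1 SD between replicates. The replicate block left their differences as they were, with standard errors of 0.081 to 0.16, and gave 358 genes higher and 471 lower. Of the 176 genes tested from all lists together, 91 passed the adjusted threshold with it in place of 44, while the 26 called genes stayed at 26 and none of those calls ended. The gain, all at less than 2-fold, includes *Usp5* (adjusted p = 0.022), *Socs3*, *Dppa5a*, *Krt8* (0.022) and *Ifih1* (0.041), among others.

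*L3mbtl2* stayed between -1.48 and -1.19. Up-regulated genes numbered 194 with normexp and 700 at 1.5-fold, and down-regulated genes 159 with normexp, 291 over probes above background on all arrays and 1015 at 1.5-fold. With an array left out they were 296 to 371 and 357 to 501. The up-regulated USP genes numbered 0 with normexp and 0 over probes above background on all arrays, which leaves out *Usp26*. *Jak3* was not called with normexp, which left 0 cytokine genes lower. Among the other deubiquitinases 1 was higher (*Otud6a*) without a filter and without *L3mbtl2*-KD replicate 4 (0 to 1 over arrays left out), and 1 was lower (*Stambpl1*) at 1.5-fold. Among the substrate genes 1 was higher (*Ifih1*) with quantile normalization and without control replicate 1 (0 to 1). *Gata6* (0.064, and -0.11 to 0.24 with an array left out) and *Tfap2c* (-0.024, and -0.16 to 0.16) had no settled sign. The cause of these shifts was not tested.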
